A study of Mus musculus with 40 samples.

Results

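KO-only open sites are peaks of accessible chromatin found in T helper 2 (Th2) cells of Setdb1 knockout (KO) mice that overlapped no peak of wild-type (WT) Th2 cells. They were chosen from 2 lists of ATAC-seq peaks, 1 per genotype, as KO peaks on chromosomes 1 to 19 and X that did not share a single base pair with a WT peak. There were 5748 of them among 58480 KO sites on these chromosomes (9.83%), beside 52732 KO sites shared with WT and 39925 sites found in WT alone. The WT list was the longer of the lists, with 92071 sites. Each list stands for 1 sample whose libraries, by the peak names, were merged before peaks were called, so the absence of a site from WT has no replicate check, and the difference in openness that defines the sites is described here without a test. Histone marks, RNA, gene positions and sequence were not used to choose them.

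The cells were CD4 T cells from spleens of C57BL/6 mice, cultured for 6 days towards the Th2 fate with anti-CD3, anti-CD28, IL-4 and an antibody against interferon gamma, with IL-2 in place of the first pair from day 3. The groups were Th2 cells of Setdb1-/- mice (KO), Th2 cells of Suv39h1 KO mice, used for H3K9me3 only, and Th2 cells of Setdb1+/+ mice (WT). Naive cells and Th2 cells moved to Th1 medium with IL-12 and an antibody against IL-4 (Th2-Th1 cells) of both Setdb1 genotypes gave further RNA, and naive cells gave H3K9me3 and, in WT, H3K4me1. The sources used here do not say how either deletion was made.

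ATAC-seq uses a transposase that inserts sequencing adapters where DNA is not covered by nucleosomes, so that its peaks mark promoters, enhancers and other open sites. SETDB1 and SUV39H1 are enzymes that trimethylate histone H3 at lysine 9. The product, H3K9me3, is found on silenced chromatin. SETDB1 is known for silencing endogenous retroviruses, remnants of viral insertions whose long terminal repeats can act as promoters and enhancers. H3K27ac marks active promoters and enhancers, and H3K4me1 marks enhancers whether active or not. No annotation of repeats was used here, so no site was assigned to a retrovirus.

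Few KO-only sites lay at gene starts, and the sequences of 4 of those are shown because the RNA of their genes was higher in libraries labelled Setdb1 KO and each gives a different setting. They were chosen after the RNA values were seen. Each sequence is a RefSeq gene start window (GRCm38.p6, 250 bases before to 50 after the start), written along the gene's strand, and capitals mark the bases inside the open site. Tgtp2 (chr11:49064163-49064462, minus strand) encodes a GTPase induced by interferon, Ttc30a2 (chr2:75978130-75978429, minus strand) a component of the transport machinery of cilia, Mapk10 (chr5:103211285-103211584, minus strand) the stress kinase JNK3, and Cnr2 (chr4:135911430-135911729, plus strand) a cannabinoid receptor of immune cells. A gene can have several start windows, and those of Mapk10 and Cnr2 shown here lie inside the genes (chr5:102908547-103212604 and chr4:135895189-135920219).
Tgtp2: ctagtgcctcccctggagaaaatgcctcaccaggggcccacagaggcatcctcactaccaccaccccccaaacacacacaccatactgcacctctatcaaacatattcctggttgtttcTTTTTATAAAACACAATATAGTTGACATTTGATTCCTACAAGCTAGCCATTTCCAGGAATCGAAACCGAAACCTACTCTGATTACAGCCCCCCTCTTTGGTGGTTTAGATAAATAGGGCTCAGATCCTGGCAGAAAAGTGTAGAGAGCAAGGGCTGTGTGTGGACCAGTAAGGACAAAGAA
Ttc30a2: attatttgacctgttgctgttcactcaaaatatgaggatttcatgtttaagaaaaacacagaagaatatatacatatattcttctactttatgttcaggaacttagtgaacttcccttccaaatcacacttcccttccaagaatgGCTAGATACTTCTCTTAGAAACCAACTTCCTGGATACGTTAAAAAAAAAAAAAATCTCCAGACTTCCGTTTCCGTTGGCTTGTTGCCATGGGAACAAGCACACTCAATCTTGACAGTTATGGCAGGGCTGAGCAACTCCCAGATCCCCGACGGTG
Mapk10: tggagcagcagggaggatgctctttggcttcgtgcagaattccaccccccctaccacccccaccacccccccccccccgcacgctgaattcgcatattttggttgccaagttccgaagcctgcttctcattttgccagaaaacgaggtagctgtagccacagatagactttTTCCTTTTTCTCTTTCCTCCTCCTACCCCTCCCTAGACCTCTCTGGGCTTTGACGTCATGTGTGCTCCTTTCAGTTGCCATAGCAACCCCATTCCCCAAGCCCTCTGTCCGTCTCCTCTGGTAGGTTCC
Cnr2: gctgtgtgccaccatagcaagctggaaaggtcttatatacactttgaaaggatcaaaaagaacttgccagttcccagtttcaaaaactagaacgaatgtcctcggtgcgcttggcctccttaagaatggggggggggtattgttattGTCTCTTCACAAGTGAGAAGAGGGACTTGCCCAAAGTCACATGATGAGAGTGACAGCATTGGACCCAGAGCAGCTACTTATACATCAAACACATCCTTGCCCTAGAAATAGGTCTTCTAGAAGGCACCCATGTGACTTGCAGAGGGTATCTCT
The window of Tgtp2 held the letters GAAANNGAA, a core bound by interferon regulatory factors (IRF), within its open part, and 8.41% of the 107 windows with a KO-only site held them on either strand, against 8.53% of all 32619 windows. The window of Mapk10 held TGACGTCA, the cyclic AMP response element, which 0.935% of windows with a KO-only site and 1.8% of all windows held. A match of letters is a description and does not show that a factor was bound.

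Most KO-only sites were narrow and weak by the authors' score, which is 10 times the -log10 q of the peak caller in this layout. Their median width was 138 bp, against 264 bp for KO sites shared with WT and 149 bp for WT-only sites. Their median score was 21, against 47 for shared sites and 34 for WT-only sites, and their highest was 135, against 1097 and 292. The median distance to the nearest WT site was 5731 bp, and 89 sites (1.55%) lay less than 100 bp from one. The 3 members closest to the rule's limit lay at chr8:39011216-39011337, directly beside a WT site, and 1 and 2 bp away at chr1:23296024-23296587 and chr2:3773060-3773228, with scores of 13, 18 and 14. The KO sites just outside the rule overlapped a WT site by 2, 3 and 4 bp, at chr1:96196485-96196723, chr10:84897335-84897598 and chr1:181016553-181016703, with scores of 16, 25 and 50.

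The sites were spread over 1875 windows of 1 Mb with a median of 2 each. A minority stood close together: 533 sites (9.27%) lay within 5000 bp of another, and only 5 groups held 4 or more. The densest Mb windows were chr8:20000001-21000000 with 20 sites, chr4:146000001-147000000 with 19 and chr14:53000001-54000000 with 16. A group of 5 sites at chr11:21181652-21193688 had no RefSeq gene within 10 kb, and 4 of its sites lay on H3K9me3 of Th2 WT that was absent from Th2 KO.

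The share of KO sites that were KO-only was higher on chromosomes 1 to 3 than on any other. It was 14.9% on chromosome 1, 12% on chromosome 2 and 12.7% on chromosome 3, and lay between 6.69% and 10.3% on the rest. The excess was in weak peaks: under a score of 20, 41.6% of KO sites on chromosomes 1 to 3 and 26.4% on the others were KO-only, while at 20 or more the shares were 7.21% and 6.29%. Both lists held more weak peaks on those chromosomes, 17.5% against 13% of the KO list and 11.2% against 7.93% of the WT list. The part of this imbalance in the results below was not tested, but the main counts are also given without those chromosomes.

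**Figure D1:**
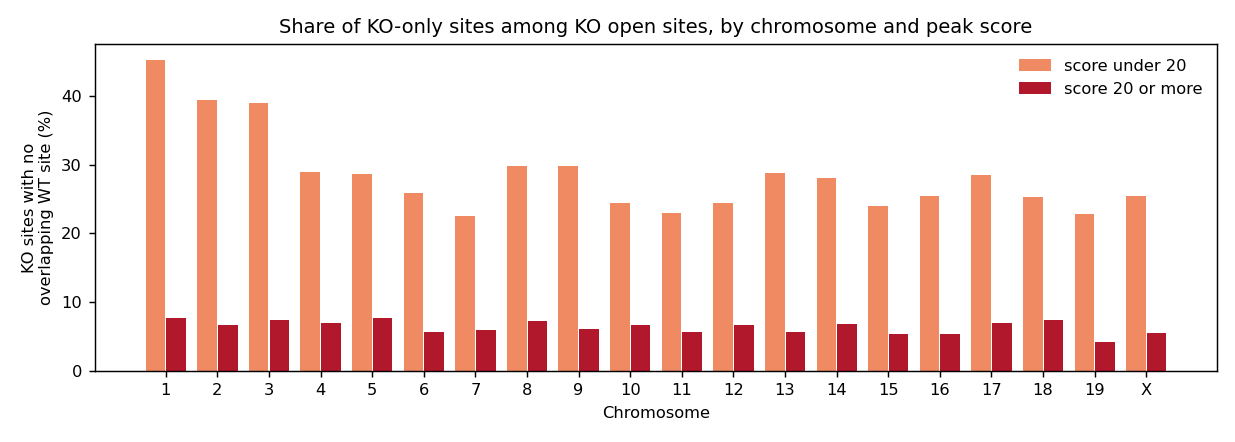
Share of KO open sites with no overlapping WT site (percent) on each chromosome, for sites with a peak score under 20 (light bars) and of 20 or more (dark bars). Chromosomes 1 to 3 stand apart for weak sites, at 39 to 45.3%, and not for stronger ones, at 6.67 to 7.71%.

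KO-only sites lay on H3K9me3 of WT cells more often than other open sites did, by a margin that depended on peak strength. Of the KO-only sites, 395 (6.87%, exact 95% interval 6.23 to 7.56) overlapped an H3K9me3 region of Th2 WT, against 1.65% of KO sites shared with WT and 1.05% of WT-only sites. The KO-only share was 17.4% for KO sites at or above the median score, and 3.85% when sites were set against WT sites at or above theirs alone. For H3K9me3 of naive WT cells the shares were 5.64%, 0.931% and 0.503%. In KO cells the mark was rare at these places, though not as rare as at other open sites. H3K9me3 of Th2 Setdb1 KO covered 45 KO-only sites (0.783%), against 0.36% of shared and 0.215% of WT-only sites. H3K9me3 of naive Setdb1 KO covered 46 (0.8%), against 0.381% and 0.185%. Of the 395 sites with H3K9me3 in Th2 WT, 357 (90.4%) had none in Th2 KO. The same held for 709 of 871 shared sites, 361 of 420 WT-only sites and 11690 of all 12222 H3K9me3 regions of Th2 WT. The KO list of H3K9me3 was itself far shorter, with 1700 regions against 12222 in Th2 WT.

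Nearly all of these sites carried the mark in cells without Suv39h1: 355 of the 357 (99.4%) lay on H3K9me3 of Th2 Suv39h1 KO cells. This was not particular to KO-only sites. Of sites with H3K9me3 in Th2 WT and none in Th2 Setdb1 KO, 695 of 709 shared and 341 of 361 WT-only sites did too. The Suv39h1 KO list was the longest, with 43379 regions, and it covered 24.5% of KO-only sites, 9.24% of shared sites and 6.97% of WT-only sites. The mark was already present at 156 of the 357 sites (43.7%) in naive WT cells. Seen from the other side, 338 of 11690 H3K9me3 regions that Th2 KO cells had lost (2.89%) held a KO-only site, 5.52% a shared site and 2.88% a WT-only site. Of 532 kept regions, which were wider, 44 (8.27%) held a KO-only site, 27.6% a shared site and 9.96% a WT-only site. Lost regions thus held KO-only and WT-only sites about equally often, although there were 5748 KO-only and 39925 WT-only sites. Per site, 6.21% of KO-only, 1.34% of shared and 0.904% of WT-only sites lay on lost H3K9me3.

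**Figure D2:**
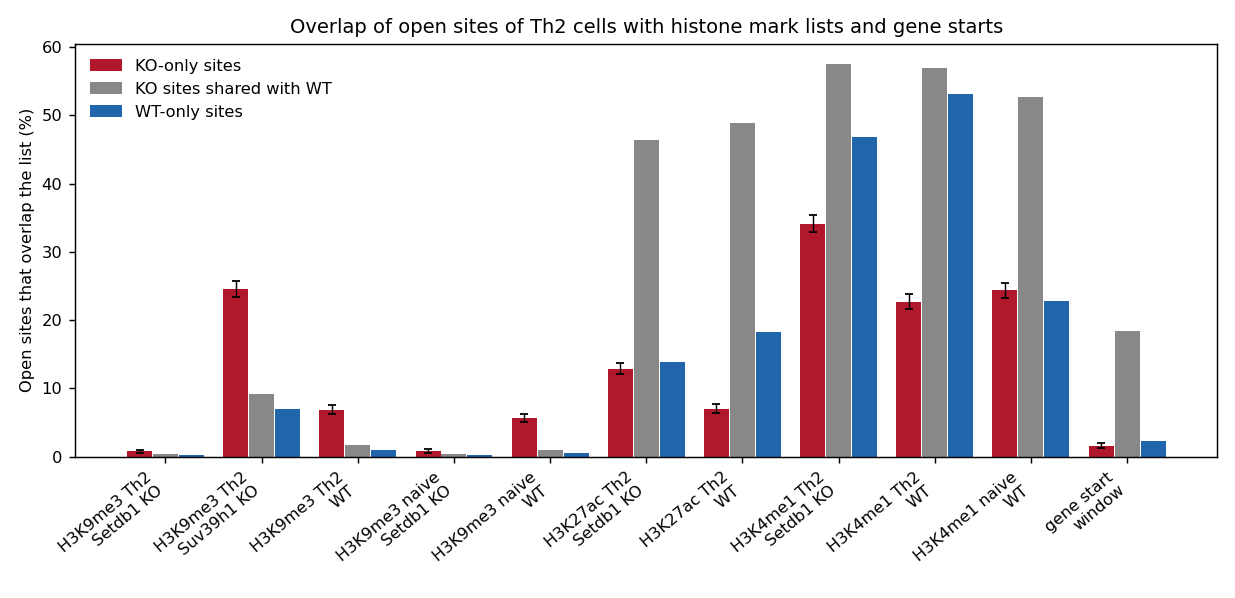
Percent of KO-only sites (red), KO sites shared with WT (grey) and WT-only sites (blue) of Th2 cells that overlapped each histone mark list or a gene start window by at least 1 bp. Bars on KO-only sites are exact 95% binomial intervals, which cover counting error only. KO-only sites are highest in each H3K9me3 list and lowest in most H3K27ac and H3K4me1 lists, where shared sites lead.

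The stronger a KO-only site was, the more often it lay on H3K9me3 of WT cells. The share on Th2 WT H3K9me3 was 4.82% at scores of 10 to 19, 6.48% at 20 to 39, 15.3% at 40 to 79 and 26.8% at 80 or more, where there were 56 sites. Among KO sites shared with WT the same bands gave 1.56%, 1.36%, 1.58% and 2.1%. H3K27ac present in KO and absent from WT followed the same order in KO-only sites, with 5.18%, 6.79%, 18.1% and 39.3%, against 5.1%, 4.75%, 5.56% and 4.01% in shared sites. Without chromosomes 1 to 3 the share of KO-only sites on Th2 WT H3K9me3 was 7.67%.

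**Figure D3:**
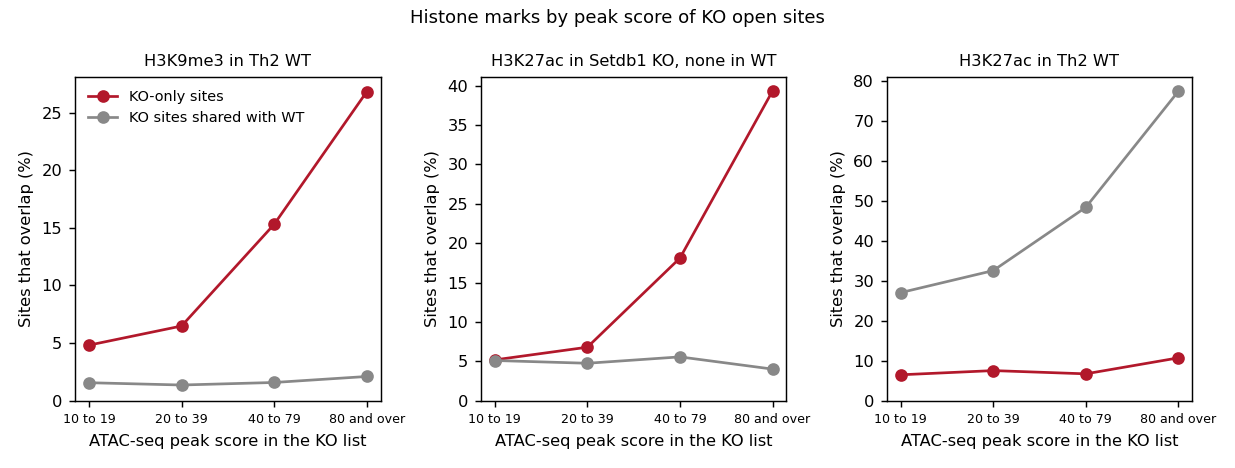
Percent of KO-only sites (red) and of KO sites shared with WT (grey) that overlapped H3K9me3 of Th2 WT (left), H3K27ac of Setdb1 KO with none in WT (middle) and H3K27ac of Th2 WT (right), by ATAC-seq peak score in the KO list. The first measure reaches 26.8% and the second 39.3% in the strongest KO-only sites and stays at 5.56% or below in shared sites, whereas H3K27ac of WT reaches 77.3% in shared sites and 10.7% in KO-only sites.

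H3K27ac and H3K4me1 were rarer on KO-only sites than on shared ones, and those present leaned towards the KO lists. H3K27ac covered 12.9% of KO-only sites in Setdb1 KO and 7.01% in WT, against 46.4% and 48.9% of shared sites and 13.9% and 18.2% of WT-only sites. H3K4me1 covered 34.1% of KO-only sites in Setdb1 KO and 22.7% in WT, against 57.6% and 56.9% of shared sites. H3K27ac was in KO and not in WT at 436 KO-only sites, and in WT and not in KO at 95. For H3K4me1 these counts were 839 and 180. At shared sites they were 2551 and 3880 for H3K27ac and 4655 and 4328 for H3K4me1. At WT-only sites they were 1041 and 2775, and 2391 and 4951. The KO lists held more peaks, 40670 against 31218 for H3K27ac and 97020 against 76251 for H3K4me1. They did not cover more of the genome, with 47.1 against 52.8 Mb and 121 against 124 Mb. Of the KO-only sites 1400 (24.4%) had H3K4me1 in naive WT cells, and 2445 (42.5%) lay on none of the 11 histone lists, against 15.4% of shared sites.

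At sites that had lost H3K9me3, H3K27ac and H3K4me1 were present in KO cells more often than at KO-only sites as a whole. Of the 357, 97 (27.2%) lay on H3K27ac of Setdb1 KO and 15 (4.2%) on H3K27ac of WT. H3K4me1 covered 184 (51.5%) in Setdb1 KO and 56 (15.7%) in WT. At 49 of them both marks were in KO and neither was in WT, while 158 had neither mark in KO.

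The highest-scored KO-only sites show these states one by one. The first, at chr1:171489352-171490168 with a score of 135 and a width of 817 bp, lay 10104 bp from the nearest WT site on H3K9me3 of Th2 WT that was lost in KO, with H3K27ac in KO alone. The second, at chr3:139262225-139262721 (score 134), lay inside Stpg2, a sperm-tail gene, with H3K27ac and H3K4me1 in KO and neither in WT. A site at chr11:78998074-78998456 (score 126) on lost H3K9me3 lay 13149 bp from Lgals9, which encodes the lectin galectin-9. Another at chr13:64051843-64052164 (score 120) combined lost H3K9me3 with H3K27ac and H3K4me1 in KO. Of the 7 tested genes nearest to the 12 strongest sites, Lgals9 rose by 2.99 ± 0.21 on the log2 scale (± SE, limma, adjusted p = 4.22e-10), and Lpgat1, an enzyme of phospholipid synthesis, and the membrane protein gene Tmc5 rose by 1.56 and 4.10 (limma, adjusted p = 1.74e-10 and 0.00337). Of all 17254 tested genes 54.0% passed in either direction. Stpg2 and Mtus2 did not pass, with log2 differences of -0.66 and 1.83, and Fcgr1 and Rbfox1 had too few reads in either genotype for a fold.

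A strong site of this kind lay beside Setdb1 itself. At chr3:95360152-95360832 (score 97), 2949 bp from the gene (chr3:95323525-95357202), H3K9me3 was present in naive WT, Th2 WT and Th2 Suv39h1 KO and absent from both Setdb1 KO lists, and H3K27ac and H3K4me1 were in Th2 KO alone. The RNA of Setdb1 went against the label: it was 8070, 9044 and 8342 normalised reads in the Th2 libraries labelled Setdb1 KO, against 694, 933 and 841 in WT. All libraries labelled KO lay far above all WT libraries, a log2 difference of 3.37 ± 0.12 (limma, adjusted p = 7.22e-14). The counts cover the whole gene and do not show how much intact transcript was present, so RNA groups are called by their labels. In naive cells, libraries labelled Setdb1 KO averaged 1006 ± 87.2 (SD, n = 3), against 1310 ± 66.4 in WT (n = 4), a log2 difference of -0.38 ± 0.11 (limma, adjusted p = 0.0319).

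RNA was measured in 3 Th2 libraries of each genotype with 36.261 to 44.719 M reads in libraries labelled Setdb1 KO and 10.141 to 13.258 M in WT, so genes near 0 in WT were counted at lower depth there. Whether the replicates came from different mice or cultures is not in the labels, and p-values therefore cover the spread between libraries, which may be technical. The T cell genes Cd3e, Cd3g, Cd4 and Cd28 were present in every Th2 library, at 1032 to 15084 in libraries labelled Setdb1 KO and 490 to 15724 in WT. In bulk RNA, fewer cells of a type and less RNA per cell cannot be told apart. The summed level of 13 B cell genes was 758 to 1317 in libraries labelled Setdb1 KO and 341 to 442 in WT, that of 9 erythroid and platelet genes 712 to 788 and 85.4 to 123, and that of 11 myeloid genes 69.9 to 89.9 and 119 to 153. Of these genes 3, 2 and 2 were at 0 in libraries labelled Setdb1 KO and 7, 4 and 5 in WT. The largest of these sums was that of 15 CD8 and cytotoxic genes, at 11073 to 17981 in libraries labelled Setdb1 KO and 25622 to 29438 in WT, with 0 and 4 genes at 0, and 12 receptor genes of natural killer and innate lymphoid cells summed to 51.5 to 90.6 and 105 to 190, with 3 and 7 at 0. The ranges of the groups did not overlap in any of the 5 lists. By gene, calls went both ways: 1 higher and 1 lower of 10 tested B cell genes, and 2 and 1 of 6 erythroid and platelet genes. For CD8 and cytotoxic genes they were 3 and 2 of 14, for natural killer genes 1 and 1 of 6, and for myeloid genes 0 of 7. The sums thus do not show a shift of each list as a whole. The part of other cell types in the results was not tested.

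Genes near KO-only sites were called higher more often, and lower less often, than tested genes as a whole, by margins of a few percentage points. Of 17254 tested genes 29.3% passed as higher and 24.7% as lower in libraries labelled Setdb1 KO (limma, adjusted p under 0.05), and a RefSeq position was found for 16163. Within 10 kb of a KO-only site lay 2852 tested genes, of which 1026 (36.0%) were higher and 604 (21.2%) lower. Their median log2 difference was 0.29. Over all tested genes with a position the shares were 30.0% and 25.1%, with a median of 0.13. Genes within 10 kb of KO sites shared with WT gave 32.1% and 24.4%, and those near WT-only sites 31.3% and 24.8%.

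Genes near sites with H3K27ac or H3K4me1 in KO alone gave larger shares. Near sites with H3K27ac in KO and none in WT, 131 of 287 genes (45.6%) passed as higher and 58 (20.2%) as lower, and the median log2 difference was 0.42. Near sites with H3K4me1 in KO and none in WT, 232 of 520 (44.6%) were higher and 99 lower. Near sites that had lost H3K9me3, the higher genes were 78 of 223 (35.0%) and the lower ones 64 (28.7%), and the median was 0.15. Where a KO-only site lay in a gene start window, 18 of 44 tested genes were higher (40.9%) and 5 lower (11.4%). Some of these calls were fragile. Those of C5ar2, Clasp2, Clcn3, Dmc1, Gm8369, Kazn, Maneal, Pak6 and Sv2c were lost in 2 to 7 of the 14 alternative RNA fits. Some rested on few reads, with means of 7.09 for C5ar2 and 6.64 for Maneal in Th2 libraries labelled Setdb1 KO.

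Gene length moved with these counts. Genes near KO-only sites had a median length of 49361.5 bp, against 19252 bp for all. Among genes of up to 6332 bp, 31.6% of 320 with a site and 17.7% of 3721 without were higher. Up to 19252 bp the shares were 35.1% and 30.9%, up to 49895 bp 36.8% and 35.4%, and for longer genes 36.8% and 32.9%. Lower calls differed mainly among genes of up to 6332 bp, with 25.6% of those with a site and 36.8% of those without. In the longer groups, in the same order, they were 24.7% and 23.8%, 21.7% and 22.5%, and 18.8% and 17.8%. The part of gene length in the counts was not tested. Without chromosomes 1 to 3, 812 of 2206 genes near a site (36.8%) were higher and 474 (21.5%) lower.

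**Figure D4:**
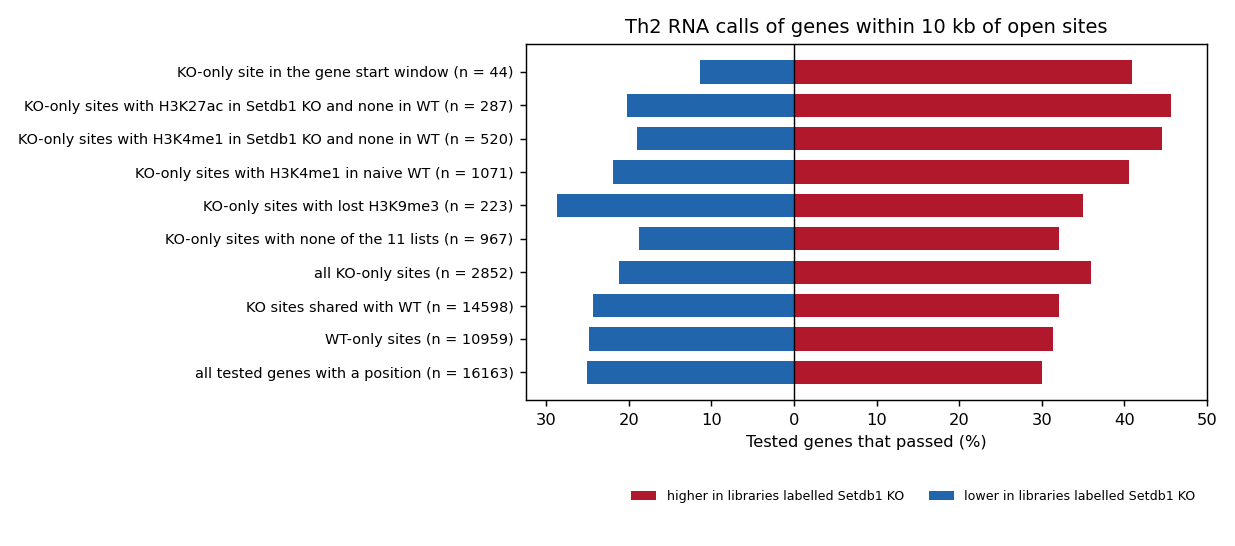
Percent of tested genes that were called higher (red, to the right) and lower (blue, to the left) in Th2 libraries labelled Setdb1 KO (limma, adjusted p under 0.05), for genes within 10 kb of each set of open sites or, in the top row, with a KO-only site in the gene start window. Genes near sites with H3K27ac or H3K4me1 in KO alone reach 45.6% and 44.6% higher, against 30.0% of all tested genes with a position.

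The same genes leaned upwards in the other conditions too. In naive cells 327 of the 2852 genes near KO-only sites (11.5%) were higher and 80 (2.81%) lower, against 7.43% and 3.45% of all tested genes. In Th2-Th1 cells the shares were 23.4% and 14.5%, against 17.6% and 16.1%. Near sites that had lost H3K9me3, 75 of 223 genes (33.6%) were higher and 28 (12.6%) lower in Th2-Th1 cells. Libraries labelled Setdb1 KO and WT libraries of these conditions are separate samples from the Th2 ones.

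Among genes with a KO-only site at the start, Gm4969 had 233, 214 and 152 normalised reads in Th2 libraries labelled Setdb1 KO, against 2.02, 0 and 7.48 in WT (log2 6.07 ± 0.75, limma, adjusted p = 1.21e-06). Adcy7, an adenylyl cyclase, had 4783, 4540 and 4478, against 1797, 1759 and 1504 in WT (log2 1.45 ± 0.12, limma, adjusted p = 6.26e-09). Its site, at chr8:88293730-88294081, was in a start window well inside the gene (chr8:88272190-88329965). Tgtp2 had 330, 351 and 467 normalised reads in Th2 libraries labelled Setdb1 KO, against 56.5, 39 and 89.8 in WT, higher by 2.68 ± 0.29 on the log2 scale (limma, adjusted p = 1.85e-07). The groups did not overlap. Its start carried H3K27ac and H3K4me1 in both genotypes, so only openness was called in KO alone. A near-identical neighbour, Tgtp1, means that reads could be split between the copies. In naive cells Tgtp2 averaged 4020 ± 1391 in libraries labelled Setdb1 KO (SD, n = 3) and 2846 ± 759 in WT (n = 4), which did not pass (limma, adjusted p = 0.31), and in Th2-Th1 cells it rose by 3.39 ± 0.32 on the log2 scale.

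Cnr2 had 599, 615 and 529 in libraries labelled Setdb1 KO, against 246, 258 and 212 in WT, which is 1.28 ± 0.18 higher on the log2 scale (limma, adjusted p = 6.45e-06). Mapk10 had 17.5, 25.5 and 19, against 2.02, 0 and 0 in WT (limma, adjusted p = 0.00638). Ttc30a2 had 4.77, 9.85 and 17, against no read in any WT library, at least 1.65-fold higher if each WT library is set at a floor of 3 reads. These last values rest on few reads. The site at Ttc30a2 carried H3K9me3 in Suv39h1 KO cells, and H3K27ac and H3K4me1 in Setdb1 KO and not in WT.

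Some of the largest rises were at genes with groups of KO-only sites. Ccdc11, also named Cfap53, which encodes a protein of cilia, had 9 sites on chromosome 18, more than any other tested gene. All 9 lay on H3K27ac of Setdb1 KO and none on H3K27ac of WT, and 8 lay on H3K4me1 of KO. Its RNA was 2773, 3281 and 2634 in Th2 libraries labelled Setdb1 KO, against 34.3, 13 and 32.4 in WT, higher by 6.82 ± 0.86 on the log2 scale (limma, adjusted p = 1.6e-06). Th2-Th1 cells averaged 4755 ± 1210 (SD, n = 3) in libraries labelled Setdb1 KO and 28.1 ± 4.64 in WT (n = 2), and in naive cells 52.1 ± 18.5 (n = 3) and 21.5 ± 18.7 (n = 4), which did not pass (limma, adjusted p = 0.114).

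Fgl1, which encodes a secreted fibrinogen-like protein that binds the inhibitory receptor LAG3, had 4 sites inside the gene, at chr8:41205261-41209491. All lay on H3K27ac of Setdb1 KO, none on H3K27ac of WT, and all on H3K9me3 of Suv39h1 KO cells but none on that of Th2 WT. Its RNA was 2011, 2257 and 1527 in libraries labelled Setdb1 KO, against 4.03, 3.71 and 0 in WT, higher by 9.38 ± 0.84 on the log2 scale (limma, adjusted p = 1.74e-08). It was the largest rise among genes with a site that met the naming rule. In naive cells Fgl1 was near 0 in both genotypes, at 2.21 ± 2.09 in libraries labelled Setdb1 KO (SD, n = 3) and 1.98 ± 2.58 in WT (n = 4), and in Th2-Th1 cells it averaged 363 ± 108 in libraries labelled Setdb1 KO (SD, n = 3) and 2.32 ± 3.29 in WT (n = 2).

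The other genes with many sites did not share a direction. Foxp1, a transcription factor that keeps T cells quiescent, had 6 sites and rose, with 1797, 1701 and 1924 in libraries labelled Setdb1 KO, against 256, 232 and 230 in WT (log2 2.91 ± 0.13, limma, adjusted p = 1.02e-12). Of its 6 sites 5 had H3K4me1 in naive WT cells, where Foxp1 averaged 8098 ± 1433 in libraries labelled Setdb1 KO (SD, n = 3) and 7786 ± 152 in WT (n = 4). Fam53b with 5 sites rose by 1.88 ± 0.19, and the Rac activator Tiam1 with 5 by 0.63 ± 0.18. Stat5b, which carries the IL-2 signal, also had 5 and fell to 2580, 2809 and 2722, against 6305, 6474 and 8005 in WT (log2 -1.35 ± 0.12, limma, adjusted p = 1.35e-08). Its strongest site, at chr11:100842076-100842347 with a score of 93, had H3K27ac and H3K4me1 in both genotypes. Etv6, Rab10 and Rftn1 fell by 0.57, 0.47 and 0.47 on the log2 scale, and Tgfbr2, a receptor for TGF-beta, was at 1922 to 1978 in libraries labelled Setdb1 KO and 1861 to 2068 in WT. Gm7592, with 6 sites, did not pass (limma, adjusted p = 0.165).

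Of the 223 genes near sites that had lost H3K9me3, of which 78 were higher and 64 lower (28.7%, against 25.1% of all), 10 were picked by the size of their difference. Ccdc11, described above, was among them, with 1 of its 9 sites on lost H3K9me3. The others follow. Clec12a, an inhibitory lectin receptor usually found on myeloid cells, had 150, 146 and 544 in libraries labelled Setdb1 KO and no read in WT, at least 44.0-fold higher with each WT library at 3 reads (limma, adjusted p = 2.6e-06). Its site lay 1519 bp from the gene at chr6:129347690-129348263, on H3K9me3 of naive and Th2 WT, with H3K27ac and H3K4me1 in KO alone. Mgat5, which encodes a branching enzyme of N-glycans, had 4 sites, 2 of them on H3K9me3 of Th2 WT. It reached 1113, 1038 and 1316, against 40.3, 42.7 and 27.4 in WT (log2 4.95 ± 0.21, limma, adjusted p = 8.43e-13). In naive cells Mgat5 averaged 643 ± 89.2 in libraries labelled Setdb1 KO (SD, n = 3) and 456 ± 72.9 in WT (n = 4), which did not pass (limma, adjusted p = 0.119).

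Oasl2, an antiviral gene induced by interferon, had 93.4, 140 and 188, against 8.07, 9.28 and 0 in WT (log2 4.91 ± 0.67, limma, adjusted p = 3.88e-06), with a site at chr5:114887869-114888202 on lost H3K9me3. Dnah7a, a dynein of cilia, had 273, 275 and 261, against 0, 18.6 and 0. The pheromone receptor pseudogene Vmn2r-ps121, the receptor gene Vmn2r97 and the metalloproteinase gene Mmp25 had no read in WT and were at least 5.5-fold, 3.81-fold and 4.27-fold higher against the floor. The receptor gene and pseudogene belong to a large family of near copies, so their reads are uncertain. Gm15834 rose by 4.79 ± 0.70. Nrp2, a co-receptor for semaphorins, was lower, at 147, 150 and 130, against 2557, 2715 and 2717 in WT (log2 -4.22 ± 0.33, limma, adjusted p = 2.57e-09).

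**Figure D5:**
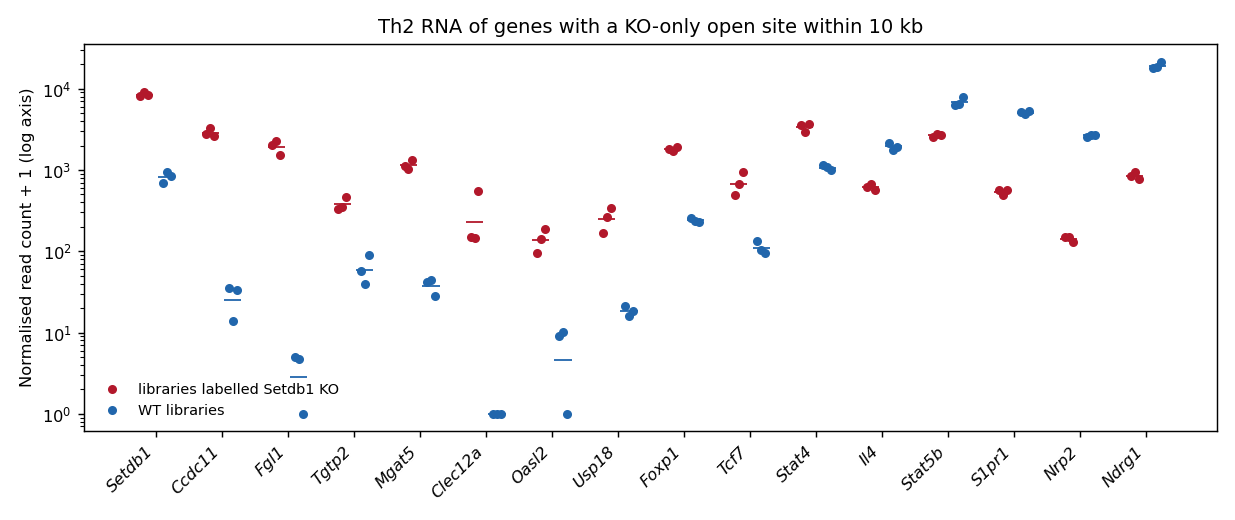
Normalised read count plus 1 (log axis) in each Th2 library for 16 genes with a KO-only open site within 10 kb: 3 libraries labelled Setdb1 KO (red, left) and 3 WT libraries (blue, right) per gene, with a line at the mean of the log values. The first 11 genes are higher in all libraries labelled Setdb1 KO than in any WT library, and the last 5 are lower.

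Further genes with a single site or a pair changed as widely in both directions. Nov, a matrix-associated signalling protein, had 682, 716 and 881 in libraries labelled Setdb1 KO, against 4.03, 0 and 0 in WT (limma, adjusted p = 3.07e-09). Ctnna2, a neuronal alpha-catenin, and Acoxl had no read in WT and were at least 26.2-fold and 21.8-fold higher against the floor. Drc1, a regulator of cilia, Il17rb, the receptor subunit for IL-25, and Iigp1, a GTPase induced by interferon, rose by 7 ± 0.66, 6.51 ± 0.98 and 6.44 ± 0.54 on the log2 scale. The largest falls among genes averaging at least 50 normalised reads over the Th2 libraries were those of Adm, Itga7, Serpinf1 and Bend5. Adm, which encodes the peptide adrenomedullin, had 4.37, 4.48 and 3.00 in libraries labelled Setdb1 KO, against 1665, 1518 and 2023 in WT. The integrin Itga7, Serpinf1 and Bend5 had log2 differences of -7.11, -6.69 and -6.15. Fibronectin (Fn1), tissue factor (F3), the receptor kinase Flt3, the adaptor Pik3ap1, the adhesion protein Mpzl2 and Ndrg1, a gene induced by hypoxia, fell, with log2 differences of -5.32, -4.87, -4.89, -4.35, -4.26 and -4.51.

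By function, 17.6% of all tested genes with a position had a KO-only site within 10 kb. Of the 20 lists, genes of naive and quiescent T cells had one most often, in 9 of 16, of which 3 were higher and 5 lower. Tcf7, which encodes the factor TCF-1 of naive and memory cells, had 487, 667 and 934 in libraries labelled Setdb1 KO, against 131, 104 and 94.8 in WT (log2 2.61 ± 0.21, limma, adjusted p = 3.74e-09). The kinase Txk rose by 3.32 ± 0.55, whereas S1pr1, the receptor that lets T cells leave lymphoid organs, fell to 562, 492 and 568, against 5154, 4862 and 5271 in WT (log2 -3.24 ± 0.12, limma, adjusted p = 2.02e-13).

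Of 27 tested genes for H3K9 methylation and heterochromatin 8 had a site, and 7 of the 8 were higher and none lower. Besides Setdb1 these included Atf7ip, the partner that stabilises SETDB1, with 3 sites and 2181, 2516 and 2636 in libraries labelled Setdb1 KO, against 633, 711 and 985 in WT (log2 1.67 ± 0.16, limma, adjusted p = 4.36e-08). The chromatin remodeller Atrx and the silencing factor Morc3 rose by 1.41 ± 0.14 and 1.41 ± 0.10. Over the whole list, with and without a site, 19 of 27 were higher and 2 lower. Of 29 interferon-stimulated genes 3 had a site, while 24 were higher. Usp18, a brake on interferon signalling, had 3 sites and 166, 266 and 339, against 20.2, 14.8 and 17.5 in WT (log2 3.75 ± 0.32, limma, adjusted p = 8.11e-09), and Gbp2 fell by 0.91 ± 0.24.

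Among genes of T helper lineages, 4 of 26 Th1 genes (15.4%) and 6 of 23 Th2 genes (26.1%) had a site, against 17.6% of all tested genes. Stat4, which carries the IL-12 signal, had 3605, 2933 and 3684 in libraries labelled Setdb1 KO, against 1143, 1073 and 993 in WT (log2 1.67 ± 0.14, limma, adjusted p = 4.17e-09), with a site at chr1:52012390-52012500 on H3K27ac of KO and not of WT. The inhibitory receptor gene Havcr2 rose by 2.16 ± 0.67, Runx3 fell by 1.56 ± 0.22, and Il18r1 did not pass (limma, adjusted p = 0.101). Of the Th2 genes, Il4 had 621, 663 and 567 in libraries labelled Setdb1 KO, against 2176, 1759 and 1936 in WT (log2 -1.66 ± 0.27, limma, adjusted p = 3.13e-05), and its site at chr11:53615493-53615578 carried H3K27ac in both genotypes. Gata3, the master regulator of Th2 cells, had a site at chr2:9884319-9884479 and did not pass, at 1883 to 2467 in libraries labelled Setdb1 KO and 2004 to 2303 in WT. Batf, a partner of AP-1 factors, fell by 1.56 ± 0.15, and its site 4173 bp away lay on lost H3K9me3. Tbx21, Ifng, Il12rb2, Il5 and Il13 had no KO-only site within 10 kb.

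In the remaining lists, which are short, shares lay on both sides of that of all genes. Of 11 genes of follicular helper cells 5 had a site (45.5%): Icos and Cd40lg rose by 0.73 ± 0.14 and 0.96 ± 0.27, Bcl6 fell by 1.60 ± 0.37, and Il6ra fell by 0.68 ± 0.22, a call lost without KO replicate 1 or WT replicate 3 (limma, adjusted p of up to 0.0699). Of 13 regulatory T cell genes 4 had one (30.8%), and Tnfrsf9 fell by 3.21 ± 0.24. Of 7 Th17 genes 2 had one (28.6%), and Rora fell by 2.56 ± 0.24. Of 19 neural genes 5 had one (26.3%): Tubb3, a neuronal tubulin, reached 139, 115 and 161, against 0, 7.42 and 0 in WT (limma, adjusted p = 7.29e-07), with H3K27ac and H3K4me1 at its site in KO alone, while the call of Cacna1b (limma, adjusted p = 0.0361) was lost in 8 of 14 alternatives. Of 22 cell cycle genes 3 had one (13.6%), and Mki67 rose by 1.90 ± 0.28. Jund, Pkm and Ebf1 had 1 site each, with log2 differences of 1.24, -1.47 and -5.09. The piRNA helicase Tdrd9, with 2 sites, was at 7.55, 9.85 and 14.5, against no read in WT, at least 1.67-fold higher against the floor. None of the tested cytotoxic, natural killer, erythroid and protocadherin genes of the lists had a site within 10 kb.

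In position, 3309 KO-only sites (57.6%) lay within a RefSeq gene and 92 (1.6%) in a gene start window, against 70.8% and 18.4% of shared sites and 62.7% and 2.35% of WT-only sites. Of the 92, 12 carried H3K27ac of Setdb1 KO, a mark found on 12.9% of all KO-only sites. Among the 12, those at Tgtp2, Adcy7, Set, Tgif1 and Aebp2 carried H3K27ac of WT too. Others of the 92, such as those at Clasp2, Pak6, Lzts2 and Phf2, carried H3K27ac of WT and not of Setdb1 KO. The windows with a KO-only site had a median GC content of 60.7% and 15 CpG dinucleotides, against 62.0% and 22 in windows with a shared site and 53.0% and 7 in all windows. Letters of the Ets family (CCGGAAG) were in 5.61% of them, against 19% of windows with a shared site and 8.92% of all windows. AP-1 letters (TGANTCA) were in 8.41%, against 4.8% and 7.85%, and letters bound by Sp and KLF factors (GGGCGGG) in 35.5%, against 49.8% and 25.7%. For the other letters searched, shares of windows with a KO-only site were set against those with a shared site and all windows. AGATAA, a core of Gata factors, was in 3.74% (4 of 107), against 5.49% and 11.2%. TGTGGTT (Runx) was in 5.61%, against 3.87% and 5.29%, and AGGTGTGA (T-box) in 1.87%, against 0.787% and 1.28%. TTCNNNGAA (STAT) was in 8.41%, against 6.64% and 8.34%. ATGCAAAT (Oct) was in 2.8%, against 1.38% and 1.75%, and GGANTTTCC (NF-kB) in 0.935%, against 1.2% and 1.26%. CTTTGAT (TCF) was in 4.67%, against 2.38% and 3.76%, and GGAAAA (NFAT) in 20.6%, against 19.6% and 23.4%. Both strands were searched, and the only overlapping matches were of IRF and STAT letters, in 1 window.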

How the data were processed

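Open sites came from ATAC-seq peaks of Th2 cells (1 list per Setdb1 genotype), marks from 11 ChIP-seq lists, and RNA from 18 libraries (3 Th2 libraries of each genotype). Per the submitters' processing notes the build was mm10 and the tools were MACS2 2.1.0, BWA 0.7.10, TopHat2 2.0.5, cutadapt 1.3 and DESeq, with no role given. ATAC, H3K27ac and H3K4me1 lists are in the MACS2 broad layout, and peak names show that libraries were merged. In the deposited peak lists the score is 10 times the -log10 q as a whole number, and the fold is the authors' enrichment over local background. H3K9me3 lists hold a deposited score of unstated scale, which was not used. The deposited RNA signal is, per the labels, normalised read counts. Each value was a whole read count divided by 1 factor per library (100% of values above 0, within 0.01), and the recovered totals of the Th2 libraries were 36.261 to 44.719 M for Setdb1 KO and 10.141 to 13.258 M for WT. Counting error limits low genes, more so in WT, and intervals cover counting error only.

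Sites were compared by overlap of at least 1 bp. Genes that reached 10 in 2 or more libraries (17254 of 39179) were fitted in 1 limma 3.58.1 model (R 4.3.3) on log2(value + 1) over all 18 libraries, with a coefficient per group and Benjamini-Hochberg adjustment, called at 0.05. Fold changes are on that log2(value + 1) scale, which understates the change of low genes. The fit was tested on simulated data. Gene positions and start windows are from RefSeq GRCm38.p6, and 16163 tested genes matched a position. Genes were joined to a site in the body or within 10 kb. edgeR 4.0.16 and DESeq2 1.42.0 on recovered reads were alternatives, beside other pseudocounts, filters, scalings, windows, score limits and left-out libraries. Genes were named by rule: those nearest to the 12 strongest sites, the 10 with most sites, the 10 with the largest call each way (mean of at least 50 over the Th2 libraries, groups that did not overlap, no predicted genes), up to 4 per list, a fixed set of lineage genes, and the 10 with the largest change beside lost H3K9me3. Genes with a site at the start were added after their values were seen. The members, lists and rules were chosen with earlier results of these data known. Repeats were not annotated.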

Additional observations from a re-analysis of the deposited data

Results flagged for a closer look

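Foxp1 in naive WT cells had 1 library at 8011, apart from the other three (gap of 0.844 of the range, against a limit of 0.829 for 4 samples); chance marks about 1 in 20 groups in this way.

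Some of the named genes with a KO-only site moved in opposite directions in 2 conditions, with no overlap between libraries labelled Setdb1 KO and WT in either. These differences between conditions were not tested. The share of all tested genes that moved in this way is not given here, so the list does not show that these genes stand out. Setdb1 was higher in Th2 libraries labelled Setdb1 KO than in WT, and had a log2 difference of -0.38 in naive cells. Etv6, Gbp2, Il6ra and Tnfrsf9 fell in Th2 cells and had log2 differences of 0.91, 0.74, 0.57 and 1.37 in naive cells. Gbp2, Flt3, Mpzl2, Pkm, Rora, Runx3 and Stat5b fell in Th2 cells and had log2 differences of 3.2, 1.43, 3.38, 0.22, 0.97, 0.88 and 0.88 in Th2-Th1 cells. Cd40lg and Tiam1 rose in Th2 cells and had log2 differences of -0.48 and -0.56 in Th2-Th1 cells. Not all second differences passed. That of Il6ra in naive cells did not (limma, adjusted p = 0.0873). Nor did those of Flt3, Pkm and Cd40lg in Th2-Th1 cells (limma, adjusted p = 0.286, 0.119 and 0.245), where WT had 2 libraries.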

How the results depend on the processing

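The number of KO-only sites was 533 with KO sites at or above the median score, 19240 against WT sites at or above theirs, and 4092 without chromosomes 1 to 3 (the last chosen after seeing the data). With the stronger KO sites, the shares on H3K9me3 were 17.4% (Th2 WT), 12.4% (naive WT), 49.2% (Suv39h1 KO) and 0.375% in each Setdb1 KO list, and those on H3K27ac of KO and H3K4me1 of KO and of WT 27.8%, 49.9% and 24.6%. Against the stronger WT sites alone the shares were 3.85% (H3K9me3 of Th2 WT), 2.85% (naive WT), 15.2% (Suv39h1 KO), 21.7% and 18.5% (H3K27ac of KO and WT), 45.4% and 38.8% (H3K4me1 of KO and WT), 35.6% (naive H3K4me1), 5.67% (gene starts) and 63.6% (gene bodies). With no WT site within 500 bp the shares were 11.5% and 5.41% (H3K27ac of KO and WT), 32.6% and 20.6% (H3K4me1 of KO and WT) and 22.3% (naive H3K4me1). Where the mark had to cover 50% or more of the site, H3K27ac of KO covered 10.8% and H3K4me1 of KO and WT 30.6% and 20.8%. Without chromosomes 1 to 3 they were 7.67% (H3K9me3 of Th2 WT), 6.57% (naive WT), 27.5% (Suv39h1 KO), 14.7% and 8.21% (H3K27ac of KO and WT), 38.9% and 25.4% (H3K4me1 of KO and WT), 27.8% (naive H3K4me1) and 60.7% (gene bodies). These settings change which sites count.

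Genes near a site that were higher numbered 150 of 353 (42.5%) with stronger KO sites, 2535 of 7744 (32.7%) against stronger WT sites, 670 of 1873 (35.8%) with the gene body alone and 1878 of 5836 (32.2%) within 50 kb, and those lower 72, 1748, 397 and 1412. With TMM scaling, which moved the median log2 difference of all genes by 0.11, 1151 were higher and 519 lower. Leaving out 1 Th2 library at a time gave 908 to 978 higher and 538 to 576 lower near a site, and 4466 to 4829 and 3866 to 4017 over all genes. Replicate numbers did not pair the samples (correlations of 0.017, -0.002 and 0.019); with the Th2 libraries alone and a replicate block, 1068 genes near a site were higher and 664 lower, and 5217 and 4672 of all genes. None of the RNA alternatives moved these counts by over 1.5 times. Of 113 named genes 94 were called, 81 of them under all 14 alternatives. Many of these genes were named because they were called or by the size of their change, so the count of 94 follows from the naming. Of all 17254 tested genes 54.0% were called. The depth of the ATAC and ChIP lists is unknown.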

Other observations

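Outside the genes, 42.4% of KO-only sites lay in no RefSeq gene, against 29.2% of shared and 37.3% of WT-only sites. Within 1 Mb of Setdb1 there were 11 KO-only sites beside 135 shared ones, and 3 of the 56 KO-only sites with a score of 80 or more were among them. H3K9me3 regions called in KO and not in WT lay on 7 KO-only sites, and 38 kept the mark in both genotypes. Genes near KO-only sites with H3K4me1 in naive WT cells were higher in 435 of 1071 (40.6%), and genes near sites on none of the 11 lists in 310 of 967 (32.1%).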
